A study of Mus musculus with 26 samples.

Results

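Glucose, lactate and amino acid transporters are described here in murine oligodendrocyte progenitor cells (OPCs) and in the oligodendrocytes (OLs) that were differentiated from them. The 10 members were *Slc2a1*, *Slc16a1*, *Slc1a2*, *Slc1a3*, *Slc1a4*, *Slc1a5*, *Slc38a2*, *Slc3a2*, *Slc7a5* and *Slc7a11*, chosen by name and found by their gene symbol among the 10104 transcripts listed, with 1 transcript each. All 10 were listed for OPCs and 9 for OLs, since *Slc1a5* was not listed for OLs. Both cell types had been derived from epiblast stem cells of 129S/SvEv mouse embryos. OPCs were grown with bFGF and PDGFA, and OLs were differentiated in medium with noggin, IGF-1, cyclic AMP, NT3 and the thyroid hormone T3. After 40 h in culture, 5-ethynyluridine (5-EU), an analogue that is built into new RNA, was given for 24 h and then chased with uridine. Labelled RNA was pulled down and sequenced at 0, 1, 2, 4 and 6 h of chase in 3 OPC replicates and 2 OL replicates, which makes 15 OPC and 10 OL libraries. The study names these biological replicates and matches the OLs to a pair of the OPC replicates without saying which.

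Solute carriers move sugars, carboxylic acids and amino acids across the plasma membrane. Oligodendrocytes take up glucose, exchange lactate with axons, clear glutamate, and need amino acids for the large amounts of membrane protein that they make during myelination. Of the members, *Slc2a1* encodes the glucose transporter GLUT1 and *Slc16a1* the proton-coupled lactate and pyruvate transporter MCT1. *Slc1a2* and *Slc1a3* encode the high-affinity glutamate transporters GLT1 and GLAST, which astrocytes also express strongly. *Slc1a4* and *Slc1a5* encode exchangers of small neutral amino acids and of glutamine, and *Slc38a2* a sodium-coupled importer of neutral amino acids that cells induce when amino acids are scarce. *Slc3a2* encodes the CD98 heavy chain, which forms dimers with the light chains encoded by *Slc7a5* (LAT1, large neutral amino acids) and *Slc7a11* (xCT, cystine against glutamate).

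Levels are given in FPKM, fragments per kilobase of transcript relative to the mapped reads of a library, so that they can be set side by side between genes of different length. The authors scaled the levels to labelled spike-in RNA. Whether this holds for the deposited 0 h values was not settled, since 96.2% to 96.6% of the 0 h values above 0 were written with more than 6 significant digits, against 0% at the later times. No read numbers can be had from these values. Over the transcripts listed for both cell types, the median level at 6 h was 11.3% to 18.1% of 0 h in OPCs, against 33.0% and 39.4% in OLs, and a spike-in error in 1 library would move all of its transcripts together. Among each cell type's own transcripts, the share listed at 0 at 6 h was 15.7% to 21.6% in OPCs and 0.79% to 4.08% in OLs. All 8 OPC markers were listed for both cell types, with summed levels of 1560 to 1720 FPKM in OPCs and 1320 and 1530 FPKM in OLs. *Olig1* made up most of the sum in OPCs, with 1009 to 1079 FPKM, against 635 and 506 FPKM in OL replicates 1 and 2. The study uses OLIG2 as a marker of both OPCs and oligodendrocytes, and reports that some cells stayed undifferentiated OPCs after differentiation. Only 3 of 10 OL markers were listed for OPCs, at a sum of 39.2 to 57.5 FPKM, against 10 of 10 in OLs at 6440 and 2980 FPKM in replicates 1 and 2. *Mbp*, which encodes myelin basic protein, was higher in OLs by 9.27 on the log2(FPKM + 1) scale. Of the 8 OPC markers, 4 were higher in OLs as well, led by *Gpr17* (5.51), *Sox10* (3.07) and the progenitor receptor *Pdgfra* (1.70), and 2 were lower, *Olig1* (-0.88) and *Olig2* (-0.67), where 13.8% of all transcripts were higher and 15.8% lower. None of the 8 microglia or 8 endothelial markers was listed, and 3 of 8 neuron markers in OPCs and 4 in OLs were, at 86.7 to 207 FPKM.

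Before the chase, the transporters spanned a wide range of levels. In OPCs, *Slc1a3* had the highest mean, at 201 ± 22.1 FPKM (SD, n = 3), followed by *Slc38a2* at 128 ± 30.7, *Slc3a2* at 71.6 ± 17.9, *Slc1a4* at 44.7 ± 6.0, *Slc7a5* at 42.5 ± 13.1, *Slc16a1* at 40.9 ± 2.13, *Slc1a2* at 28.3 ± 7.55, *Slc2a1* at 20.0 ± 2.02 and *Slc7a11* at 18.5 ± 3.92. The replicate ranges of *Slc1a4*, *Slc7a5* and *Slc16a1* overlapped, as did those of *Slc2a1* and *Slc7a11*, and the other neighbours in this order did not overlap. *Slc1a5* was the lowest, with 3.88, 1.11 and 3.30 FPKM in OPC replicates 1, 2 and 3, close to the authors' minimum of 1 FPKM. In OLs the order was *Slc38a2* with 133 ± 9.02 (SD, n = 2), *Slc1a3* with 125 ± 41.8, *Slc3a2* with 96.1 ± 50.3, *Slc1a2* with 86.5 ± 12.9, *Slc7a11* with 40.6 ± 10.4, *Slc1a4* with 36.5 ± 5.04, *Slc16a1* with 30.6 ± 3.91, *Slc2a1* with 28.5 ± 0.861 and *Slc7a5* with 24.8 ± 9.34. The OL replicate ranges of neighbours in this order overlapped from *Slc38a2* to *Slc1a2* and from *Slc7a11* to *Slc7a5*, and only the ranges of *Slc1a2* and *Slc7a11* were apart.

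**Figure D1:**
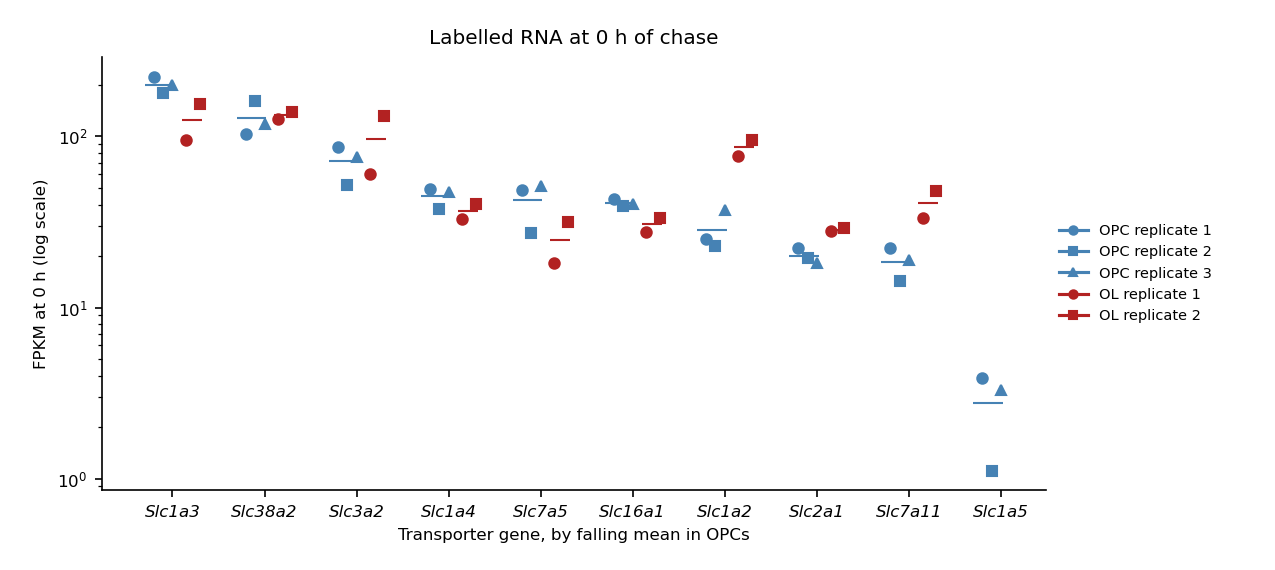
FPKM at 0 h of chase (vertical axis, log scale) for each transporter, ordered by the mean in OPCs. Blue symbols are the 3 OPC replicates, red symbols the 2 OL replicates and lines the means. *Slc1a2*, *Slc7a11* and *Slc2a1* sit higher in both OL replicates than in any OPC replicate, and *Slc16a1* and *Slc1a3* sit lower. Of these, only *Slc1a2* and *Slc7a11* were called. *Slc1a5* has no OL value.

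Labelled RNA at 0 h was compared between OLs and OPCs to ask which transporters differ in it. This is RNA made during the 24 h of labelling and still present, and total RNA levels were not compared here. *Slc1a2* and *Slc7a11* were higher in OLs, and the other 7 members did not pass the test. This is 2 of 9 members called higher, where 13.8% of the 8177 transcripts tested were called higher and 15.8% lower (limma, adjusted p under 0.05). The median difference of the 9 members was 0.09 on the log2(FPKM + 1) scale, against -0.01 over all transcripts. In bulk samples such as these, fewer cells of a type and less RNA per cell cannot be told apart.

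*Slc1a2*, the GLT1 glutamate transporter, had 25.1, 22.9 and 37.0 FPKM in OPCs (replicates 1, 2 and 3), against 77.4 and 95.7 FPKM in OLs (replicates 1 and 2). Both OL values were above every OPC value. The difference was 1.60 ± 0.27 on the log2(FPKM + 1) scale (SE), an increase of 3.03-fold, with an adjusted p of 0.00401 that stayed between 0.00037 and 0.045 under the alternatives run. *Slc1a3*, the related transporter GLAST, did not follow it. Its values were 224, 179 and 200 FPKM in OPCs and 95.5 and 155 FPKM in OLs, with both OL values below the OPC values and a difference of -0.72 (95% interval -1.33 to -0.10) that was not called (adjusted p = 0.0756), and that was -0.37 without OL replicate 1 and -1.06 without OL replicate 2. Since astrocytes express both genes, the markers of that cell type are given beside them. Of 10 such markers, 6 were listed for OPCs at a sum of 366 to 435 FPKM and 8 for OLs at 640 and 818 FPKM. Of the 6 tested, *S100b* alone was called higher in OLs. The gap junction gene *Gja1* had 35.8 to 42.0 FPKM in OPCs and 40.05 and 187.5 FPKM in OLs, and *Slc4a4*, a bicarbonate cotransporter, had 40.6 to 47.3 FPKM in OPCs and 36.9 and 102 FPKM in OLs, so both stood apart in OL replicate 2. *Gfap*, the intermediate filament of astrocytes, was listed for OLs alone, at 6.86 and 8.12 FPKM, and *Aldh1l1* at 1.72 and 2.44 FPKM, while *Aqp4* and *Gjb6* were listed for neither. The sum includes *S100b*, which oligodendrocytes express as well, at 9.07 to 10.5 FPKM in OPCs and 290 and 160 FPKM in OLs. The part of astrocyte-like cells in the *Slc1a2* difference was not tested.

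*Slc7a11*, the cystine-glutamate exchanger subunit, had 22.1, 14.4 and 19.1 FPKM in OPCs and 33.2 and 48.0 FPKM in OLs. The OL values were both above the OPC values, by 1.09 ± 0.27 on the log2(FPKM + 1) scale (2.13-fold, adjusted p = 0.02). The call was lost without OPC replicate 3 (1.12, adjusted p = 0.063 by limma). The difference was 1.35 without OL replicate 1 and 0.83 without OL replicate 2, where the spread comes from the OPC replicates alone. Its heavy chain partner *Slc3a2* had 87.1, 52.0 and 75.6 FPKM in OPCs and 60.5 and 132 FPKM in OLs, values that overlapped. The fellow light chain *Slc7a5* had 49.0, 27.4 and 51.1 FPKM in OPCs and 18.2 and 31.4 FPKM in OLs, which also overlapped. Its difference of -0.75 (95% interval -1.55 to 0.05, adjusted p = 0.134) passed the threshold only without OPC replicate 2 (0.0388), and was -0.37 without OL replicate 1 and -1.13 without OL replicate 2.

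The remaining members were not called at 0 h. *Slc2a1* had 22.3, 19.6 and 18.3 FPKM in OPCs and 27.9 and 29.1 FPKM in OLs, which did not overlap, and its difference of 0.49 (95% interval 0.00 to 0.98) had an adjusted p of 0.114. *Slc16a1* had 43.3, 39.3 and 40.2 FPKM in OPCs and 27.8 and 33.4 FPKM in OLs, again without overlap, and a difference of -0.41 (95% interval -0.90 to 0.07). Neither GLUT1 nor MCT1 therefore passed the test in these 5 libraries. *Slc1a4* (-0.28, 95% interval -0.81 to 0.24) and *Slc38a2* (0.09, 95% interval -0.49 to 0.67) had overlapping groups.

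During the chase in OPCs, the members divided into fast and slow transcripts. The decay slope is the change of log2(FPKM + 1) per hour, fitted over the 15 OPC libraries with an intercept for each replicate. Of the 10 members, 7 fell, where 81.7% of all 8530 transcripts fell. *Slc2a1* (-0.70 ± 0.07 per h, SE), *Slc1a4* (-0.67 ± 0.05), *Slc38a2* (-0.61 ± 0.07) and *Slc3a2* (-0.59 ± 0.05) fell faster than the median over all transcripts, which was -0.38 per h. *Slc1a5* had a slope of -0.29 per h from a start of 1.11 to 3.88 FPKM. With a pseudocount of 0.1 it was -0.77 per h, against a median of -0.52 over all transcripts. *Slc7a5* (-0.13 ± 0.04) and *Slc16a1* (-0.11 ± 0.04) had slopes nearer to 0, and *Slc7a11* (-0.07), *Slc1a3* (-0.04) and *Slc1a2* (-0.01) did not pass the test. The call of *Slc7a5* was lost without OPC replicate 1 (adjusted p = 0.153), that of *Slc16a1* without OPC replicate 2 (0.148), and both without the 6 h libraries (0.272 and 0.655). With every library set to the median of its 0 h library, which brought the median slope to -0.02, *Slc2a1*, *Slc1a4* and *Slc1a5* still fell, *Slc3a2* and *Slc38a2* were no longer called, and *Slc16a1*, *Slc1a2*, *Slc1a3*, *Slc7a5* and *Slc7a11* rose by 0.38 to 0.49 per h, so that the direction of these 5 depended on the scale.

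**Figure D2:**
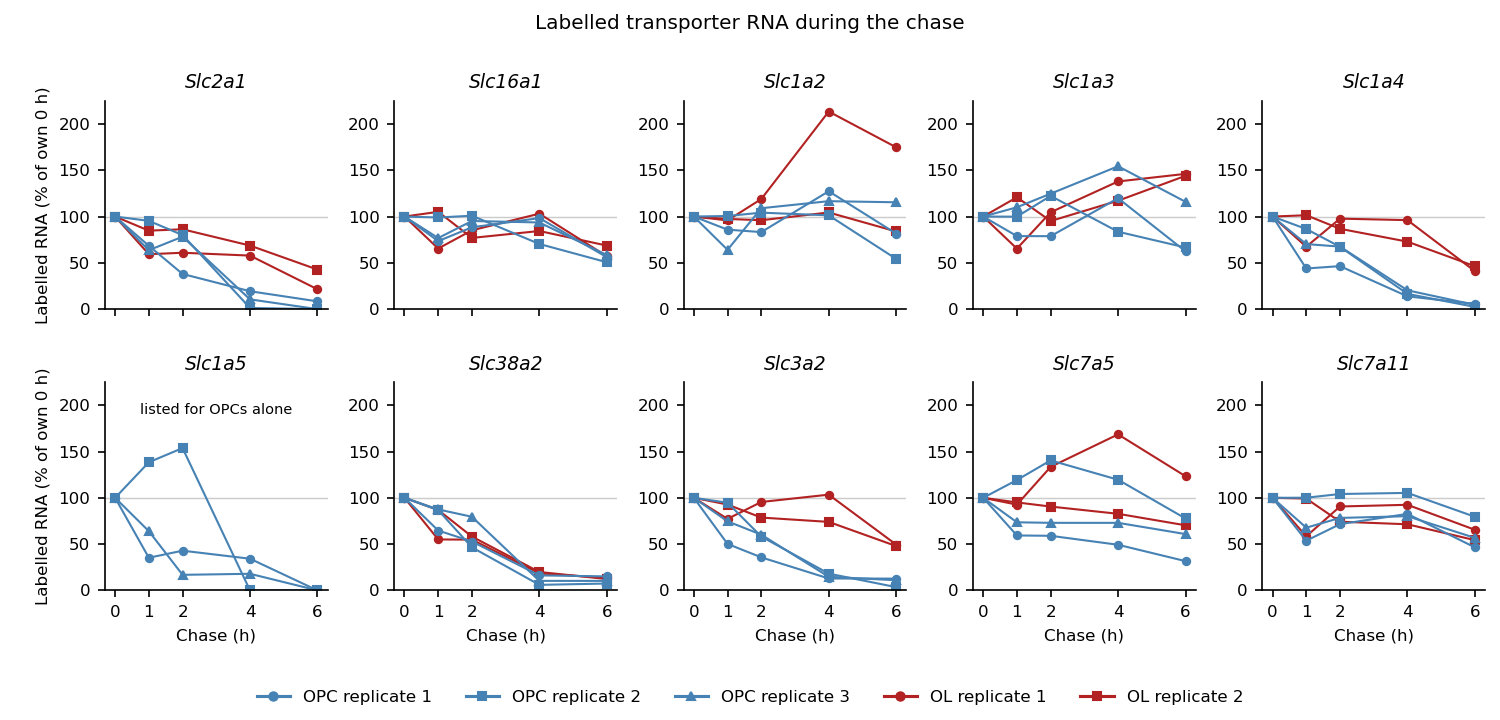
Labelled RNA as a percentage of the same replicate's 0 h level (vertical axis) against hours of chase (horizontal axis), 1 panel per transporter. Blue lines are the 3 OPC replicates and red lines the 2 OL replicates. *Slc2a1*, *Slc1a4*, *Slc3a2* and *Slc1a3* end lower in every OPC replicate than in either OL replicate, whereas the OPC and OL curves of *Slc38a2* and *Slc16a1* cross.

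In OLs, 4 of 9 members fell, where 68.4% of 9751 transcripts fell, and 1 rose, where 1.5% rose. *Slc38a2* had the steepest slope, -0.51 ± 0.05 per h (SE), lower than that of all but 1.1% of transcripts. *Slc2a1* (-0.23 ± 0.05), *Slc1a4* (-0.16 ± 0.05) and *Slc3a2* (-0.14 ± 0.05) fell at rates near or slower than the median of -0.20 per h. *Slc1a3* rose by 0.11 ± 0.05 per h (adjusted p = 0.0414), and this call was lost without either OL replicate (0.254 without replicate 1 and 0.124 without replicate 2), with a pseudocount of 0.1 (0.0516), without the 6 h libraries (0.296) and with no replicate block (0.154). *Slc16a1* (-0.08), *Slc7a11* (-0.09), *Slc1a2* (0.08) and *Slc7a5* (0.00) were not called. The slope of *Slc7a11* was -0.14 and called without OL replicate 1 (adjusted p = 0.0364), and -0.04 without OL replicate 2 (0.711). Set to the 0 h median, which brought the median slope to 0.01, *Slc38a2* still fell, while *Slc2a1*, *Slc1a4* and *Slc3a2* changed direction to 0.015, 0.09 and 0.12 per h. On that scale *Slc1a3* (0.37 per h), *Slc1a2* (0.34), *Slc7a5* (0.26), *Slc16a1* (0.18), *Slc7a11* (0.17) and *Slc3a2* were called as rising. Without the 6 h libraries the calls of *Slc2a1*, *Slc1a4* and *Slc3a2* in OLs were lost as well (adjusted p = 0.123, 0.643 and 0.708), as were, without OL replicate 2, those of *Slc3a2* (0.234) and *Slc1a4* (0.136), and that of *Slc3a2* with no replicate block (0.115).

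The slopes were then compared between the cell types. *Slc1a4*, *Slc2a1* and *Slc3a2* decayed more slowly in OLs than in OPCs, and the remaining 6 did not pass the test. This is 3 of 9 members, where 23.7% of the 8177 transcripts tested were called slower in OLs, and the members' median difference of 0.13 per h was near the 0.14 per h over all transcripts. Each replicate contributed 1 slope, so the test is of 3 values against 2.

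*Slc1a4*, the neutral amino acid exchanger, kept 43.9%, 46.4%, 13.8% and 5.70% of its 0 h level at 1, 2, 4 and 6 h in OPC replicate 1. In OPC replicate 2 it kept 86.6%, 67.4%, 16.5% and 2.44%, and in replicate 3 70.3%, 67.5%, 20.4% and 4.61%. OL replicate 1 kept 67.4%, 97.7%, 96.1% and 41.0%, and OL replicate 2 kept 101%, 86.8%, 72.9% and 46.4%. The groups overlapped at 1 h, and from 2 h on every OL value was higher than every OPC value. Its slopes were -0.60, -0.75 and -0.66 per h in OPCs and -0.14 and -0.18 per h in OLs. The difference was 0.51 ± 0.08 per h (SE, 95% interval 0.34 to 0.68, adjusted p = 0.00332), higher than that of 98.4% of transcripts.

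*Slc3a2*, the CD98 heavy chain, kept 12.9%, 18.1% and 14.7% at 4 h in the 3 OPC replicates, against 103% and 74.0% in OLs. At 6 h it kept 12.7%, 3.52% and 11.0% in OPCs and 49.5% and 47.9% in OLs. Both times separated the cell types without overlap, although the OL replicates started from the very different levels of 60.5 and 132 FPKM. The slopes were -0.49, -0.74 and -0.56 per h in OPCs and -0.12 and -0.16 per h in OLs, a difference of 0.45 ± 0.09 per h (SE, 95% interval 0.26 to 0.65, adjusted p = 0.00679).

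*Slc2a1*, the glucose transporter GLUT1, kept 19.3%, 1.27% and 10.6% at 4 h in OPCs, against 57.8% and 68.7% in OLs. At 6 h it kept 8.40% in OPC replicate 1 and was listed at 0 in OPC replicates 2 and 3, while OLs kept 21.5% and 42.7%. The OPC values were all below the OL values at both times. Its slopes of -0.50, -0.87 and -0.74 per h in OPCs and -0.28 and -0.18 per h in OLs differed by 0.47 ± 0.10 per h (SE, 95% interval 0.25 to 0.70, adjusted p = 0.00985). With a pseudocount of 0.1 this difference was 0.85 per h, against a median of 0.22 per h over all transcripts, and was not called (adjusted p = 0.0974).

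These 3 calls rest on 2 OL replicates. Without 1 of them the spread comes from the OPC replicates alone, so only the sizes are given. Without OL replicate 1 the differences of *Slc1a4*, *Slc2a1* and *Slc3a2* were 0.49, 0.52 and 0.43 per h, and without OL replicate 2 they were 0.53, 0.43 and 0.48 per h. With every library set to its 0 h median, they were 0.33, 0.55 and 0.23 per h against a median of -0.03 over all transcripts, in the same direction and not called (adjusted p = 0.0928, 0.144 and 0.137). *Slc3a2* was also not called with a pseudocount of 0.1 (adjusted p = 0.0639).

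**Figure D3:**
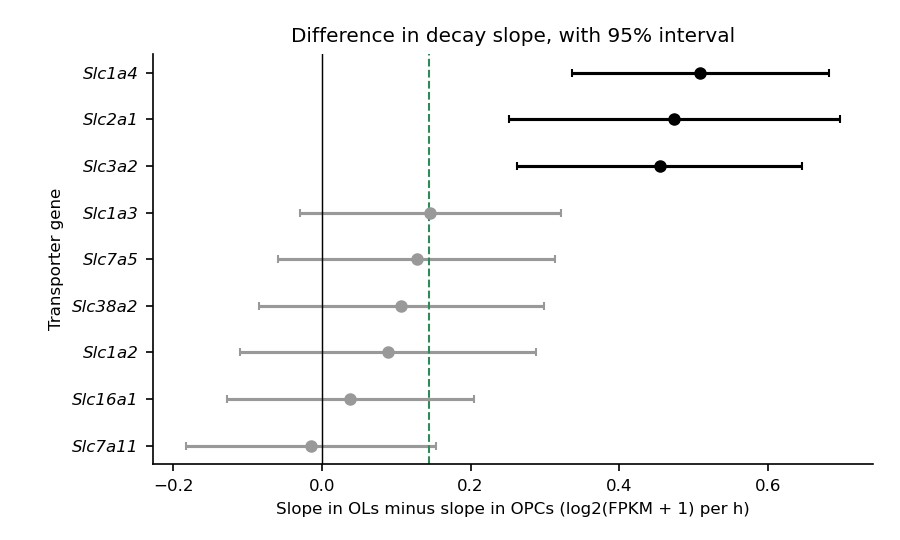
Decay slope in OLs minus decay slope in OPCs, in log2(FPKM + 1) per hour (horizontal axis), for the 9 transporters listed for both cell types. Points are estimates and bars 95% intervals from 3 OPC and 2 OL replicates, black where the adjusted p was under 0.05, and the dashed line is the median of 0.14 per h over all transcripts. *Slc1a4*, *Slc2a1* and *Slc3a2* lie between 0.45 and 0.51, with intervals that exclude this median.

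*Slc38a2* was lost quickly in both cell types. It kept 15.1%, 7.41% and 10.3% at 6 h in the 3 OPC replicates, against 13.4% and 12.3% in OLs, values that overlapped. The difference in slope was 0.11 per h (95% interval -0.09 to 0.30, adjusted p = 0.399), so a difference of up to 0.30 per h is within the interval. The light chains *Slc7a5* and *Slc7a11* were slow to decay in both. *Slc7a5* kept 31.6%, 77.7% and 60.8% at 6 h in OPCs and 123% and 70.3% in OLs, and *Slc7a11* kept 46.4%, 79.5% and 56.7% in OPCs and 65.5% and 54.3% in OLs. Hence the heavy chain transcript was lost faster than both light chain transcripts at 6 h in every OPC replicate, and in OLs it kept 49.5% and 47.9%, against 123% and 70.3% for *Slc7a5* and 65.5% and 54.3% for *Slc7a11*. Their differences in slope were 0.13 per h for *Slc7a5* (95% interval -0.06 to 0.31) and -0.01 per h for *Slc7a11* (95% interval -0.18 to 0.15), with the direction of the second turning without OPC replicate 2 (0.001) or OL replicate 2 (0.037) and that of the first when every library was set to its 0 h median (-0.13).

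The lactate and glutamate transporters kept 50.6% or more of their 0 h level at 6 h in every replicate. *Slc16a1* kept 56.1%, 50.6% and 58.4% at 6 h in OPCs and 57.1% and 68.6% in OLs. *Slc1a2* kept 81.6%, 54.2% and 115% in OPCs and 175% and 83.9% in OLs, and *Slc1a3* kept 62.4%, 66.6% and 116% in OPCs and 146% and 144% in OLs. Both glutamate transporters were thus above 100% of their 0 h level in OPC replicate 3 and OL replicate 1, and *Slc1a3* also in OL replicate 2. The OPC values of *Slc1a3* at 6 h were all below its OL values, as were those of *Slc1a4*, *Slc3a2* and *Slc2a1*. The share of all transcripts separated at 6 h was not counted. The differences in slope were 0.04 per h for *Slc16a1* (95% interval -0.13 to 0.20), 0.09 for *Slc1a2* (-0.11 to 0.29) and 0.15 for *Slc1a3* (-0.03 to 0.32). *Slc1a5*, in OPCs alone, kept 34.2% at 4 h in replicate 1 and 17.9% in replicate 3, and was listed at 0 at 4 h in replicate 2 and at 6 h in all 3 replicates.

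The deposited half-lives summarise each curve by 1 value in hours. They end at 1 largest value in each replicate, between 6.00 and 6.02 h, which was set to 6 h and is called the ceiling, and stands for a half-life of at least 6 h. *Slc16a1*, *Slc1a2* and *Slc1a3* were at the ceiling in all 5 replicates, as were 16.1% of the 8112 transcripts with a half-life in each replicate. *Slc1a4* had half-lives of 1.40, 1.96 and 1.96 h in OPC replicates 1, 2 and 3 and was at the ceiling in both OL replicates. *Slc3a2* had 1.34, 1.96 and 1.96 h in OPCs, and in OLs it was at the ceiling in replicate 1 and had 5.77 h in replicate 2. *Slc2a1* had 1.69, 1.96 and 1.53 h in OPCs, 2.79 h in OL replicate 1 and the ceiling in OL replicate 2. For these 3 of 9 members both OL values lay above all OPC values, where 35.9% of transcripts did so.

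*Slc38a2* had 1.59, 1.81 and 1.96 h in OPCs and 1.64 and 1.98 h in OLs, an average of 1.79 ± 0.185 h (SD, n = 3) against 1.81 ± 0.243 h (SD, n = 2). Its log2 difference of 0.02 had a 95% interval of -0.40 to 0.44. *Slc7a5* and *Slc7a11* were below the ceiling only in OPC replicate 1, at 3.61 and 5.42 h. *Slc1a5* had 1.64, 1.96 and 1.55 h in OPCs. The recurring value of 1.957 h was given to 25.6% of transcripts in OPC replicate 2, 7.45% in OPC replicate 3 and 2.18% in OPC replicate 1, and to 0.474% and 1.38% in the OL replicates. A least absolute deviations fit returns this value for any curve with its 1 and 2 h points above and its 4 and 6 h points below the fitted line, so equal half-lives of members in these replicates do not mean equal curves.

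**Figure D4:**
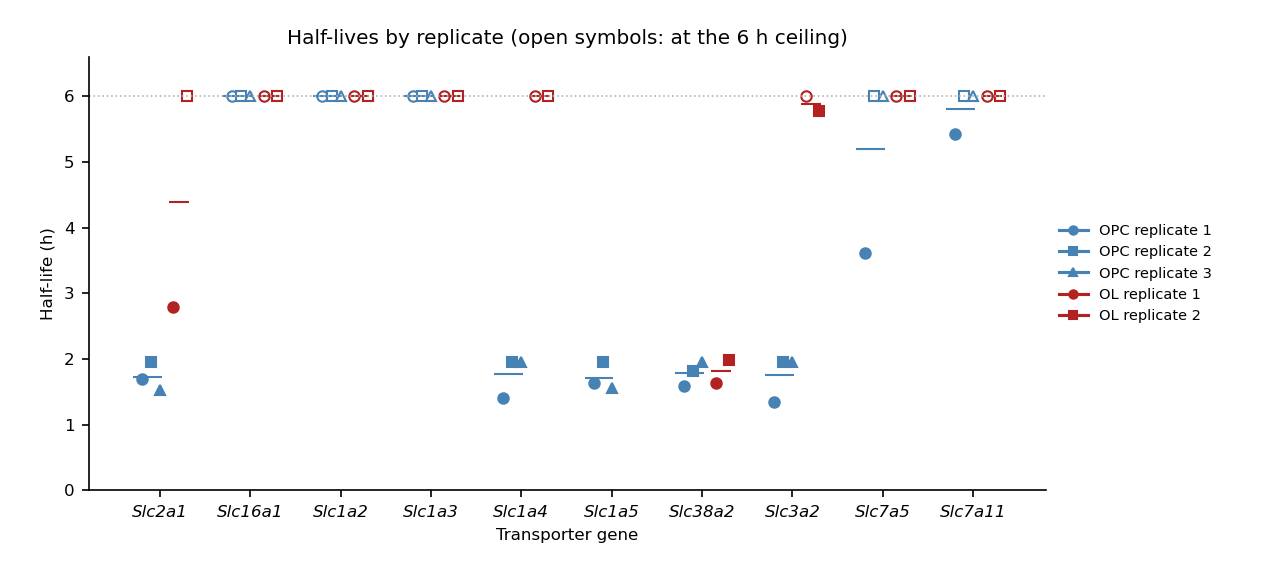
Half-life in hours (vertical axis) of each transporter in 3 OPC replicates (blue) and 2 OL replicates (red), with lines at the means. Open symbols on the dotted line are at the ceiling of 6 h. *Slc1a4* and *Slc3a2* lie under 2 h in all OPC replicates and between 5.77 h and the ceiling in OLs, and *Slc38a2* stays under 2 h in both cell types.

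In the test of log2 half-life, 1 of 9 members was called higher in OLs, where 3.39% of 8112 transcripts were. This was *Slc1a4*, with a difference of 1.78 (adjusted p = 0.0467). Both of its OL values were at the ceiling, so the size of the difference is set by the ceiling and its error comes from OPCs alone, and refitted with a ceiling of 24 h it was 2.29 (adjusted p = 0.0449). The difference of *Slc3a2* was 1.77 (adjusted p = 0.0548), just outside the threshold, and that of *Slc2a1* was 1.25 (adjusted p = 0.198), each with 1 OL value at the ceiling. Without OL replicate 1 that of *Slc2a1* was 1.805 and without OL replicate 2 it was 0.70. The median difference was 0.38 over all transcripts and 0.05 over the 9 members, of which 3 were at the ceiling in every replicate. The adjusted p of *Slc1a4* by limma ranged from 0.00304 to 0.401 over the alternatives. It was above the threshold without OPC replicate 2 (0.113) or OPC replicate 3 (0.101), with a difference of 1.86 in each. It was also above it with the replicate block (1.86, adjusted p = 0.217), refitted on the mean decay curve (1.44, 0.131) and without the 6 h libraries (1.495, 0.401). Without OL replicate 1 or OL replicate 2 the difference of *Slc1a4* was 1.78 in each, with a spread from OPCs alone. The adjusted p of *Slc3a2* fell under the threshold without OPC replicate 1 (0.0121). With half-lives centred on the median of their replicate the differences were 0.88 for *Slc1a4* (adjusted p = 0.0695), 0.87 for *Slc3a2* (0.0763) and 0.35 for *Slc2a1* (0.56).

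A rank within each replicate takes out the shared scale. *Slc1a4* stood at percentiles 23.3, 36.8 and 28.3 of half-life in OPC replicates 1, 2 and 3 and at 78.8 and 80.6, the rank of the ceiling, in OL replicates 1 and 2. *Slc3a2* stood at 21.6, 24.8 and 26.7 in OPCs and at 78.8 and 59.7 in OLs. Both ranks were higher in OLs without overlap, with differences of 50.2 points for *Slc1a4* (95% interval 35.8 to 64.6, adjusted p = 0.0536) and 44.9 points for *Slc3a2* (95% interval 26.7 to 63.2, adjusted p = 0.0782), and neither was called. *Slc2a1* overlapped in rank, with 32.1, 22.9 and 17.4 in OPCs and 30.9 and 80.6 in OLs. *Slc38a2* went from 29.1, 19.0 and 27.2 to 14.2 and 11.6, a difference of -12.2 points that was not called (95% interval -25.1 to 0.67). Half-lives at 1.957 h differ only in later digits left by the numerical fit, which spread their ranks within a replicate. With half-lives rounded to 0.001 h before ranking, an alternative chosen after seeing the data, *Slc1a4*, *Slc3a2* and *Slc2a1* all stood at 34.0 in OPC replicate 2, and *Slc1a4*, *Slc3a2* and *Slc38a2* at 30.1 in OPC replicate 3. *Slc1a4* was then called (50.5 points, adjusted p = 0.0463), as it was with a filter of 5 FPKM (0.045), and *Slc3a2* was not (40.7 points, adjusted p = 0.1). By limma 0 of 9 members were called in rank, 2 had an unadjusted p under 0.05, and 0.284% of all transcripts were called.

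The likeness of whole patterns was measured by Pearson's correlation over the 25 libraries of log2(FPKM + 1) after the median of each library had been subtracted, and is a description, since libraries of a replicate share its cells. *Slc3a2* was most like *Slc1a4* (r = 0.77) and *Slc2a1* (r = 0.76) among the members, which ranked 60 and 65 of 8176 transcripts. With its dimer partners it had r = -0.46 for *Slc7a5* and r = 0.10 for *Slc7a11*, and with *Slc38a2* r = 0.05. The 3 transcripts most like *Slc3a2* were *Tollip* (r = 0.91), *Cdkn1a* (r = 0.88) and *Rcan1* (r = 0.87), and those most like *Slc2a1* were *Fgfr3*, *Usp19* (both r = 0.91) and *Tollip* (r = 0.90). *Fgfr3*, a receptor that is also among the astrocyte markers, had 75.7, 45.2 and 54.7 FPKM at 0 h in OPCs and 42.2 and 64.9 FPKM in OLs. It decayed more slowly in OLs, by 0.66 ± 0.08 per h, and was also called in half-life (1.78 on the log2 scale) and in percentile (52.6 points). Of the 6 astrocyte markers tested, *Fgfr3* and *Slc4a4* (0.29 ± 0.09 per h) were called slower in OLs, where 23.7% of all transcripts were, and the part of astrocyte-like cells in the slopes of *Slc1a4*, *Slc2a1* and *Slc3a2* was not tested.

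Other solute carriers of the same kinds were counted from fixed lists. Of 45 further amino acid transporters, 17 were tested at 0 h, with 4 higher and 4 lower in OLs, where 13.8% and 15.8% of all transcripts were. The glutamate transporter gene *Slc1a1* had the largest increase, from 2.19, 1.95 and 1.85 FPKM in OPCs to 196 and 121 FPKM in OLs (5.69 ± 0.26 on the log2(FPKM + 1) scale, adjusted p = 5.13e-05), and *Slc6a6*, a taurine transporter, was higher by 2.32. The cationic amino acid transporter *Slc7a1* (-1.40) and the glutamine transporter *Slc38a3* (-1.16) were among those lower in OLs. Of the 17, 15 fell during the chase in OPCs and 11 of 18 in OLs, where 81.7% and 68.4% of all transcripts fell, and 1 rose in each cell type, where 4.31% and 1.5% rose, with median slopes of -0.34 and -0.21 per h, close to those of all transcripts. *Slc38a3* (0.37 ± 0.10 per h) and the lysosomal *Slc15a4* (0.28 ± 0.08 per h) decayed more slowly in OLs, which is 2 of 17 where 23.7% of all transcripts were called slower, and *Slc1a1* was the only one of the 17 called in half-life (1.14 ± 0.11 on the log2 scale, adjusted p = 0.0387), where 3.39% of all transcripts were called higher, from 2.35, 1.96 and 1.96 h in OPCs to 4.54 and 4.64 h in OLs.

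Of 12 further genes of sugar transporter families, 5 were tested at 0 h. *Slc2a8* (1.10) and *Slc2a12* (0.98) were higher and *Slc2a9* (-2.36) lower in OLs, where 13.8% of all transcripts were higher and 15.8% lower. *Slc2a8* was the 1 of 5 that decayed more slowly in OLs, by 0.32 ± 0.09 per h, where 23.7% of all transcripts did, on levels of 2.67 to 4.12 FPKM in OPCs that were listed at 0 at 6 h. Of 17 further monocarboxylate transporters and chaperones, 3 were tested. *Bsg*, the chaperone that brings MCT1 to the membrane, was measured at 215, 172 and 192 FPKM in OPCs and 318 and 207 FPKM in OLs, and rose relative to the spike-ins during the chase in OPCs (0.16 ± 0.04 per h).

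Amino acid scarcity induces several transporters through the transcription factor ATF4, and 26 other genes of this response were examined, of which 18 were tested between the cell types. Another 4 were listed for OLs alone and not tested, *Ddit3* at 9.21 and 28.3 FPKM, *Chac1* at 2.67 and 5.41, *Trib3* at 1.19 and 2.40 and *Stc2* at 1.27 and 2.51 in OL replicates 1 and 2. At 0 h, 3 were higher in OLs, *Vldlr* (2.87), *Aldh1l2* (1.05) and *Ddit4* (0.88), where 13.8% of all transcripts were, and 4 were lower, where 15.8% were, led by the translation repressor *Eif4ebp1* (-2.24) and the mitochondrial folate enzymes *Shmt2* (-1.98) and *Mthfd2* (-1.75). In the comparison of slopes 4 of 18 decayed more slowly in OLs, where 23.7% of all transcripts did, among them *Sesn2* (0.48 ± 0.09 per h), a leucine sensor, and *Atf4* itself (0.46 ± 0.11 per h). *Atf4* was at 147, 137 and 168 FPKM at 0 h in OPCs and at 137 and 166 FPKM in OLs, and kept 13.0%, 10.7% and 2.07% at 6 h in OPCs against 27.1% and 47.5% in OLs. Its groups overlapped in level and not in the part kept. The median difference in slope of the 18 was 0.07 per h, below that of all transcripts.

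The promoters of the members were searched for the letters TGATGNAAN, the composite element bound by ATF4 with C/EBP factors, and for CACGTG, the E-box bound by MYC and related factors, on both strands. RefSeq promoters (GRCm38.p6, from 250 bases before to 50 after the gene's start) were matched for 8 of the 10 members, all but *Slc1a5* and *Slc7a5*. TGATGNAAN was found in 2 of these 8, against 3.95% of 32851 promoters, and CACGTG in 1 of 8, against 7.15%. The matched stretches are shown because they are the only ones among the members, with matches in capitals and 29 or 30 bases each on the gene's strand.
Slc7a11, chr3:50443652-50443680, reverse strand: cTGATGCAAAcctggagaaTTTGCATCAt
Slc1a4, chr11:20332700-20332728, reverse strand: tgcctcctgcGTTGCATCAtctccagcct
Slc16a1, chr3:104638452-104638481, forward strand: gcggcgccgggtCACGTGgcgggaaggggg
*Slc7a11* held 2 matches on opposite strands, 66 and 48 bases before the start, and *Slc1a4* held 1 on the opposite strand, across the start itself. *Slc7a11* was higher at 0 h in OLs and slow to decay in both cell types, *Slc1a4* was not called at 0 h, and *Slc3a2* and *Slc38a2*, which like *Slc1a4* fell quickly in OPCs, had no match in this window.

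The codons of the members were read from the GENCODE M21 annotation of the same build, since the study asks how codons relate to decay. The share of UUU among phenylalanine codons (UUU and UUC) was 26.3% in *Slc2a1*, 25% in *Slc1a4* and 36.8% in *Slc3a2*, below the median of 44.4% over all transcripts. It was 52.9% in *Slc16a1*, 51.5% in *Slc38a2* and 51.4% in *Slc7a11*, and 18.2% in *Slc7a5*. The share of AAA among lysine codons was 26.7% in *Slc2a1*, 30.0% in *Slc1a4* and 21.4% in *Slc3a2*, against a median of 37.5%, and *Slc7a5* used 0 AAA codons for its 19 lysines. The G+C share at the last position of codons was 73.0%, 69.5% and 68.1% in *Slc2a1*, *Slc1a4* and *Slc3a2* and 82.4% in *Slc7a5*, against a median of 60.6%, and lowest in *Slc16a1* (50.9%) and *Slc7a11* (54.4%). Low shares of UUU and AAA were thus shared by the 3 members whose slopes differed and by *Slc7a5* and *Slc1a2* (30.4% and 17.2%), whose differences in slope were not called. *Slc38a2*, lost quickly in both cell types, had a low share of AAA (14.3%) beside its high share of UUU. The shares of UUU and AAA were 20.0% and 45.5% in *Slc1a5* and 45.8% and 35.7% in *Slc1a3*.

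The transcripts of the 3 members whose slopes differed lie on separate chromosomes of GRCm38. *Slc2a1* (ENSMUST00000030398) spans chr4:119108711-119137983 on the forward strand with 10 exons, *Slc1a4* (ENSMUST00000109594) spans chr11:20302180-20332713 on the reverse strand with 8 exons, and *Slc3a2* (ENSMUST00000010239) spans chr19:8707617-8713879 on the reverse strand with 9 exons. Their lengths were 3260, 3926 and 1819 bases, within the range of 1819 to 9223 bases over the 10 members, in which *Slc7a11* was the longest.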

How the data were processed

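Labelled RNA was sequenced in 15 OPC libraries, 10 OL libraries and 1 OPC control without biotin, which was not analysed here. The labels gave each sample its cell type, replicate and time. The authors aligned reads to GRCm38 with HISAT2 (2.1.0), tabulated FPKM with StringTie (1.3.5) over canonical coding transcripts, scaled the FPKM to labelled spike-in RNA and dropped transcripts under 1 FPKM at 0 h. All 8530 OPC and 9751 OL transcripts were used. The half-lives deposited by the authors, in h, are least absolute deviations fits of exponential decay, and the largest value of each replicate, just above 6 h and shared by many transcripts, was set here to 6 h. A refit fell within 0.01 h for 98.5% to 99.9% of transcripts. FPKM are not counts, so no count model was used, the depth is unknown and no counting interval is given. Replicates shared at most 0.0117% of their values exactly, so each counted separately.

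Tests were fitted over all transcripts with limma (3.58.1, R 4.3.3) with Benjamini-Hochberg adjustment and a threshold of 0.05: log2 half-life and its percentile within a replicate (8112 transcripts), log2(FPKM + 1) at 0 h (8177), the slope of log2(FPKM + 1) on time in each cell type with the replicate as intercept, and 1 least squares slope per replicate between cell types (8177). Fold changes on the log2(FPKM + 1) scale understate those of low genes. The fits were tested on simulated data. All 10 members were named, and of the other lists the counts and up to 3 genes per direction with the largest change among those called, of which some are not reported here. Members and lists were chosen with earlier results of these data known. The alternatives were another pseudocount, filter, scale, ceiling and pairing, no 6 h libraries, each replicate left out and, chosen after seeing the data, rounded half-lives. Coordinates and codons came from GENCODE M21 (GRCm38), which matched all 10104 transcripts, and promoters from RefSeq (GRCm38.p6).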

Additional observations from a re-analysis of the deposited data

Results flagged for a closer look

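The decay slopes of *Slc1a4*, *Slc2a1* and *Slc3a2* are listed here because the test of the difference between the cell types passed the threshold. The slope in OLs minus that in OPCs was 0.509 per h for *Slc1a4*, 0.474 per h for *Slc2a1* and 0.454 per h for *Slc3a2* on the log2(FPKM + 1) scale, against a median of 0.144 per h over all transcripts. Both OL replicates had a flatter slope than all 3 OPC replicates for each of them. The slopes of *Slc1a3*, which was not called, were likewise higher in both OL replicates than in all 3 OPC replicates. The share of all transcripts separated in this way was not counted. With groups of 3 and 2 replicates, no sample was tested as an outlier.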

How the results depend on the processing

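Counts of called transcripts moved by over 1.5 times in several fits. For half-life, 287 transcripts were called, against 1 with half-lives centred on the replicate median, 158 with a ceiling of 24 h, 13 without the 6 h libraries, and 167 to 236 with 1 replicate left out. The split of 275 higher and 12 lower in OLs became 120 and 49 without OL replicate 1, 144 and 92 without OL replicate 2, and 7 and 6 without the 6 h libraries. Refitted on the mean decay curve, 282 were called, 88 higher and 194 lower in OLs. For the percentile, 23 became 0 with a ceiling of 24 h, 0 without the 6 h libraries, 74 with a filter of 5 FPKM, 87 with half-lives rounded to 0.001 h, and 0 with any replicate left out, where 1206 to 1560 transcripts had an unadjusted p under 0.05 by limma (1449 and 1266 in the first pair). At 0 h, 2421 became 896 to 2605 with 1 replicate left out. For the slope difference, 1944 became 569 with a pseudocount of 0.1, 131 when scaled to the 0 h median (120 slower and 11 faster in OLs, against 1937 and 7), 1240 without the 6 h libraries, and 0 (without OL replicate 2, where 2082 had an unadjusted p under 0.05 by limma) to 2209 with 1 replicate left out. Scaled to the 0 h median, the OPC slopes called were 2904 rising and 2166 falling, and the OL slopes 2963 and 1962. The cause was not tested.

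Of the members' values under the alternatives, 385 kept their direction and their side of the threshold, 39 lost a call, 7 gained one and 38 changed direction. Another 33 belong to *Slc16a1*, *Slc1a2* and *Slc1a3*, whose half-life difference of 0 at the ceiling has no direction, and 7 of these moved from 0, to -0.90 for all 3 when centred (adjusted p = 0.0509 by limma), to 0.23, 0.078 and 0.69 with a ceiling of 24 h, and to -0.024 for *Slc16a1* on the mean curve, with none called. The changes of direction were as follows. In half-life, centring gave -0.66 for *Slc7a5*, -0.85 for *Slc7a11* and -0.88 for *Slc38a2*, the mean curve gave -0.23 for *Slc7a11* and -0.14 for *Slc38a2*, a ceiling of 24 h gave -0.27 for *Slc7a11*, and no 6 h libraries gave -0.27 for *Slc38a2*, which ranged from -0.12 to 0.16 with 1 replicate left out. In percentile, a ceiling of 24 h gave 0.20 for *Slc1a2* and 5.18 for *Slc1a3*, and leaving out 1 replicate gave -6.08 to 5.54 for *Slc7a5* and -6.08 to 0.73 for *Slc7a11*. At 0 h, *Slc38a2* ranged from -0.05 to 0.27 and *Slc3a2* from -0.21 to 0.90 with 1 replicate left out. In OPC slope, the 0 h median gave 0.39 for *Slc16a1*, 0.49 for *Slc1a2*, 0.48 for *Slc1a3*, 0.38 for *Slc7a5* and 0.42 for *Slc7a11*, and no 6 h libraries gave 0.072 for *Slc1a2* and 0.062 for *Slc1a3*, while *Slc1a2* ranged from -0.061 to 0.041 with 1 replicate left out. In OL slope, the 0 h median gave 0.015 for *Slc2a1*, 0.18 for *Slc16a1*, 0.091 for *Slc1a4*, 0.12 for *Slc3a2* and 0.17 for *Slc7a11*, and *Slc1a2* ranged from -0.029 to 0.18 and *Slc7a5* from -0.079 to 0.083 with 1 replicate left out. In slope difference, the 0 h median gave -0.22 for *Slc16a1*, -0.17 for *Slc1a2*, -0.12 for *Slc1a3*, -0.13 for *Slc7a5* and -0.15 for *Slc38a2*, and leaving out 1 replicate gave a range of -0.068 to 0.037 for *Slc7a11* and -0.016 to 0.19 for *Slc1a2*.

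The replicate numbers were not shown to pair the samples, since deviations of same-numbered OPC and OL replicates correlated at -0.11 to 0.06. With the replicate block, limma called 0 transcripts in half-life and 0 in percentile (1554 and 1039 at an unadjusted p under 0.05), 1932 at 0 h and 2286 in slope difference, where *Slc1a4*, *Slc2a1* and *Slc3a2* stayed called, and without it, as no replicate block, 7312 slopes were called in OPCs and 6389 in OLs.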
